A study of Homo sapiens with 3 samples.

Results

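The nuclear RNA polymerases I, II and III and the mitochondrial RNA polymerase were examined for nearby binding sites of SOX4 in BT549 cells, a long-established line from a human breast cancer of the triple-negative type. SOX4 is a transcription factor of the high-mobility-group (HMG) box family. Protein-coding genes of the RefSeq table of GRCh38.p14 whose symbols start with POLR1, POLR2 or POLR3 were taken, with POLRMT added, and 33 genes of 20037 were analysed here. SOX4 binding was read by sequencing of immunoprecipitated chromatin (ChIP-seq) in 3 libraries of 1 group, called replicates 1, 2 and 3, whose titles all carry UT, an abbreviation that the labels do not explain. The labels give 5 passages for the cells, which were fixed with DSG and formaldehyde, and an Abcam SOX4 antibody was used. There was no comparison condition, and control chromatin was not analysed here.

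Polymerase I makes the large ribosomal RNA precursor, polymerase II makes messenger RNA, and polymerase III makes transfer RNA, 5S ribosomal RNA and other short RNAs. Each enzyme has its own large catalytic subunits. POLR1C and POLR1D are built into polymerases I and III, and the products of POLR2E, POLR2F, POLR2H, POLR2K and POLR2L into all of the nuclear enzymes. POLRMT is a separate, single-subunit enzyme that transcribes the mitochondrial genome.

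Each library came as a list of summits of 1 bp, the highest points of the enriched regions. The lists held 1368, 1713 and 4430 summits in replicates 1 to 3, so replicate 3 gives most of any count over libraries. The score of a summit is the authors' own −log10 of a p or q value, with a median of 6.12, 5.57 and 5.58 in the 3 lists. Sequencing depth is unknown, so an absent summit says only that none was listed. Whether separate cultures were used is not in the labels, so differences between the libraries may be technical.

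Distances were measured to the gene start, which the RefSeq promoter table gives for 25 of the 33 genes. For POLR3G, POLR2J, POLR2J3, POLR3D, POLR2K, POLR1E, POLR2G and POLR2I the nearer end of the gene was used in its place. A gene counted as near a summit when one lay within 1 kb. Positions within a gene were not divided into exons and introns.

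The promoters of POLR3C, POLR1B, POLR3E and POLR2E are shown because their summit lay inside the stretch from 250 bases before the start to the base before it. They are given 5′ to 3′ in the direction of transcription, from RefSeq on GRCh38.p14. Capitals mark the 21 bases centred on the summit. The stretches are chr1:145823950-145824199 (+), chr2:112541786-112542035 (+), chr16:22297159-22297408 (+) and chr19:1095376-1095625 (−), in the same order.
POLR3C: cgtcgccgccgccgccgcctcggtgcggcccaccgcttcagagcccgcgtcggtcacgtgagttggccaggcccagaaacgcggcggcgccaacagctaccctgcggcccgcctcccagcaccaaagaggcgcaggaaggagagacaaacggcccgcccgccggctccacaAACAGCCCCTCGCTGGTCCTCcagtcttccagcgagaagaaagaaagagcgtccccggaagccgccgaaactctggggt
POLR1B: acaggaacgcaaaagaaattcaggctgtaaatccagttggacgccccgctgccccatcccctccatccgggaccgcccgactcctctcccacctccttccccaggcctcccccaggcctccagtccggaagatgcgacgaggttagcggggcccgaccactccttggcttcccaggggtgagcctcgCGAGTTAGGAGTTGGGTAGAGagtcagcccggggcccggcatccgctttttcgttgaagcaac
POLR3E: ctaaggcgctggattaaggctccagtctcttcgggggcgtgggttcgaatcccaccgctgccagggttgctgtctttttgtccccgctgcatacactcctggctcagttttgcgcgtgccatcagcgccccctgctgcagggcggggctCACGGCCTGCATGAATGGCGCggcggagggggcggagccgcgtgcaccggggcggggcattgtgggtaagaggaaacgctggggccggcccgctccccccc
POLR2E: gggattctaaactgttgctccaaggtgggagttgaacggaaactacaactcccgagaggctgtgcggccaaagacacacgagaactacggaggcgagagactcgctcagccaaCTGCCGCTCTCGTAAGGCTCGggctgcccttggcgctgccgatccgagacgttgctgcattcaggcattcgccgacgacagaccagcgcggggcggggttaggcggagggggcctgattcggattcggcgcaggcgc

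SOX4 summits lay within 1 kb of 12 of the 33 polymerase genes in at least 1 library (36.4%, exact 95% binomial interval 20.4 to 54.9%). The share of all coding genes was 15.8%. The genes were POLR1B, POLR1C, POLR1D, POLR1F, POLR1H, POLR2C, POLR2E, POLR3C, POLR3D, POLR3E, POLR3F and POLR3G. Among genes with a listed start the count was 10 of 25, against a background of 16.3%, and among the others 2 of 8, against 13.7%. The interval covers counting error only and treats the genes as independent. Replicate 1 gave 1 of these genes, against 3.29% of all coding genes. Replicate 2 gave 3, against 2.89%, and replicate 3 gave 9, against 13.9%. Only POLR3G was near a summit in more than 1 library (3.03% of the members, against 3.38% of all coding genes with at least 2 libraries). None was near a summit in all 3 libraries, against 0.913% of all coding genes. The share seen in 2 libraries was therefore near the background, and the higher share in any library rests on sites seen once. Without replicate 3, 4 of the 33 genes remained near a summit (12.1%, against 5.04% of all coding genes): POLR1C, POLR2E, POLR3C and POLR3G. Of the 12 genes, 8 were near a summit of replicate 3 alone (66.7%, against 68.1% of the 3165 called genes genome-wide).

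**Figure D1:**
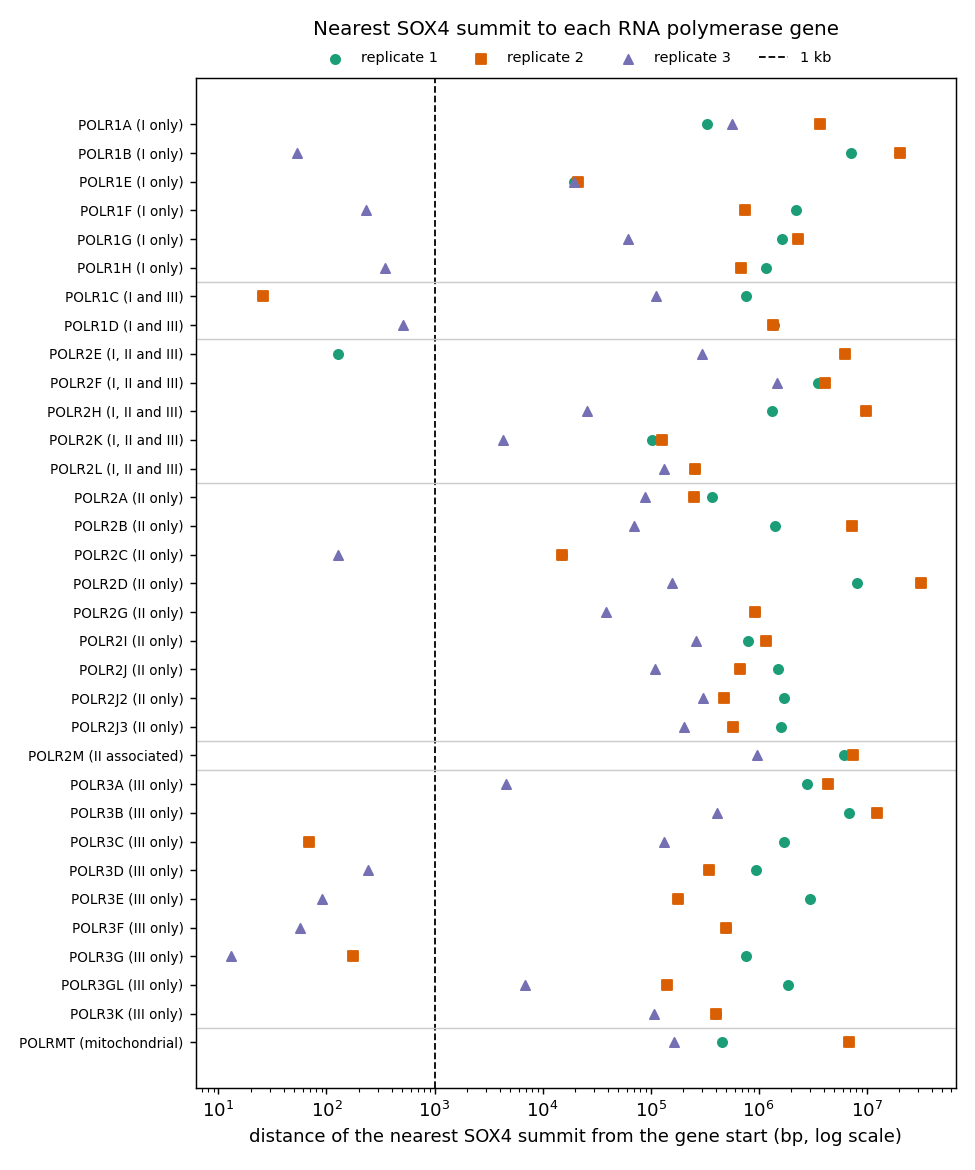
Distance from each of the 33 polymerase genes (rows, grouped by the enzyme that holds the subunit) to the nearest SOX4 summit of each library (circle, square and triangle for replicates 1, 2 and 3), in bp on a log axis; for the 8 genes with no listed start the distance is to the nearer gene end. Symbols left of the dashed 1 kb line belong to 12 genes, and POLR3G is the row with symbols of 2 libraries there.

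Sites were more often listed at subunits of polymerases I and III than at those of polymerase II. Of the 17 genes whose products are in polymerase I or III and not in II, 10 were near a summit of any library (58.8%, exact 95% interval 32.9 to 81.6%). Of the 15 genes of polymerase II, counting the shared subunits and POLR2M, 2 were (13.3%, 1.66 to 40.5%), which is close to the 15.8% of all coding genes. The intervals overlap and no test of this difference was made. With the shared subunits counted in each enzyme and POLR2M left out, the counts were 6 of 13 for polymerase I, 2 of 14 for II and 8 of 16 for III. The polymerase II count holds POLR2J, POLR2J2 and POLR2J3 as separate genes, though they are near-identical copies with the same nearest summits. By class, the counts were 3 of 6 for polymerase I alone, 2 of 2 for the subunits of I and III, 1 of 5 for the subunits of all 3 enzymes, 1 of 9 for polymerase II alone and 5 of 9 for polymerase III alone. POLR2M, which encodes a protein that associates with polymerase II, and POLRMT had no summit within 1 kb. Without replicate 3, the counts were 3 of 17 genes of polymerases I and III and 1 of 15 of polymerase II, and polymerase I alone had 0 of 6, against 5.04% of all coding genes in the same libraries. Of POLR1A, POLR1B, POLR2A, POLR2B, POLR3A and POLR3B, the genes of the large subunits that form the active centres, POLR1B alone had a summit within 1 kb (1 of 6, 16.7%, exact 95% interval 0.42 to 64.1%), close to the share of all coding genes.

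**Figure D2:**
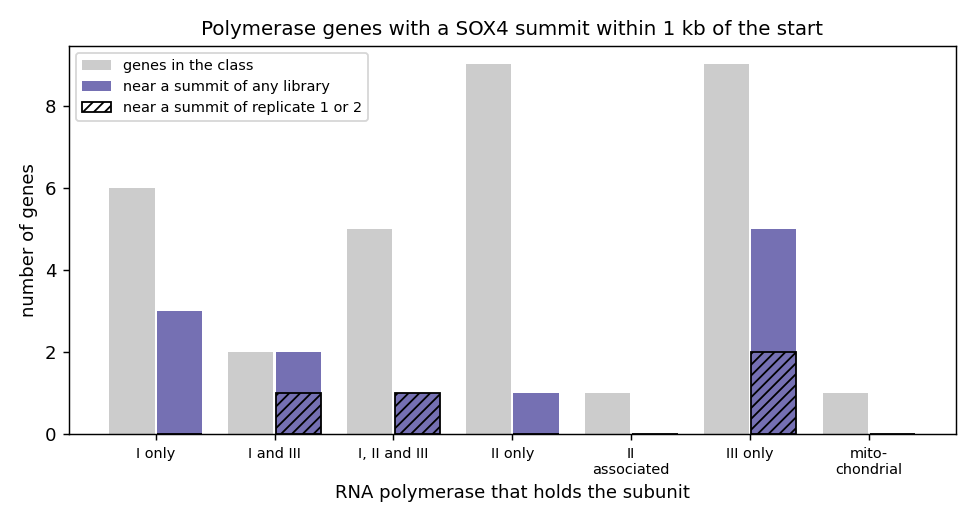
Number of genes in each class of subunit (grey), number with a SOX4 summit of any library within 1 kb of the start (purple) and number with one in replicate 1 or 2 (hatched). Purple bars reach 5 of 9 for polymerase III alone and 1 of 9 for polymerase II alone, and the hatched bars reach at most 2.

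POLR3G, the 1 member with a site in 2 libraries (3.03% of the members, against 3.38% of all coding genes), belongs to polymerase III. The specific subunits of polymerase III include a heterotrimer that acts in initiation, encoded by POLR3C, POLR3F and POLR3G or its paralogue POLR3GL. POLR3C, POLR3F and POLR3G were all near a summit, as were both genes of the POLR3D and POLR3E heterodimer, a relative of the polymerase II factor TFIIF. The counts were 3 of 3 (exact 95% interval 29.2 to 100%) and 2 of 2 (15.8 to 100%), against 15.8% of all coding genes. Without replicate 3 they were 2 of 3 and 0 of 2, against 5.04% of all coding genes. POLR3A, POLR3B, POLR3GL and POLR3K, also of polymerase III alone, had none within 1 kb. This grouping by subcomplex was made after the values were seen.

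POLR3G, on chromosome 5 from 90473929 to 90514557, encodes the form of this subunit known from stem and tumour cells. Its replicate 3 summit lay 13 bp inside the lower end of the gene with a score of 6.20, and its replicate 2 summit 177 bp inside with a score of 3.82. The summits were 164 bp apart. In replicate 1 the nearest summit was 766 kb away. Replicate 3 had another summit just past the 1 kb limit, 1006 bp inside the gene, with a score of 8.48. The neighbouring gene MBLAC2 overlaps this end of POLR3G, and the summits at 13 and 177 bp lay inside it, 829 and 665 bp from its upper end. The higher-scoring summit at 1006 bp, at position 90474935, lay just past that upper end, at 90474771, and so nearer to it than to the end of POLR3G.

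POLR3C, on chromosome 1 from 145824200 to 145844402, had a replicate 2 summit 69 bp upstream of its start with a score of 5.51. In replicate 1 no summit was nearer than 1720 kb, and in replicate 3 none nearer than 133 kb. That replicate 2 summit was also 36 bp from the start of RNF115, a ubiquitin ligase gene on the opposite strand. POLR3F, on chromosome 20 from 18467390 to 18484646, had a replicate 3 summit 57 bp downstream of its start with a score of 3.58, a low score, above 5.73% of that list. It was 417 bp from the start of DZANK1, on the opposite strand. The other libraries had their nearest summits at 499 kb in each case. POLR3C and POLR3F thus had their sites in different libraries.

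POLR3E, on chromosome 16 from 22297409 to 22335096, had a replicate 3 summit 91 bp upstream of its start with a score of 4.69. A leucine transfer RNA gene, TRL-AAG2-4, itself of the kind that polymerase III transcribes, ends 188 bp before the POLR3E start (chromosome 16, 22297140 to 22297221). The POLR3E sequence above opens with 63 bases of it, and the summit lay 97 bp past them, outside the transfer RNA gene. Replicate 1 had its nearest summit 2961 kb from POLR3E, and replicate 2 had it at 181 kb. POLR3D, on chromosome 8 from 22245133 to 22254601, had a replicate 3 summit 244 bp below its lower end, with a score of 9.02 above 89.8% of that list. The microRNA gene MIR320A lies between that summit and POLR3D, 77 bp from the summit. Replicates 1 and 2 had none nearer than 946 kb and 350.3 kb. Chromosome 8 holds 23.02%, 36.4% and 16.8% of the assembled summits of the 3 libraries, and without its genes 11 of 31 polymerase genes had one within 1 kb in any library, with a background of 15%.

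Polymerase I had sites of replicate 3 alone among its specific subunits. POLR1B, the gene of its second-largest subunit (chromosome 2, 112542036 to 112579818), had a summit 53 bp upstream of the start with a score of 5.52. The summit lay inside LOC105373562, a non-coding RNA gene on the opposite strand, and 244 bp from the end of TTL. POLR1F, which encodes a stalk subunit (chromosome 7, 19695461 to 19709037), had one 231 bp downstream with a score of 5.69. POLR1H, a subunit involved in RNA cleavage (chromosome 6, 30060062 to 30064907), had one with a score of 4.73, 349 bp upstream of the listed start. The POLR1H summit lay inside the widest extent of the gene and inside the transcribed pseudogene POLR1HASP. It was also 349 bp from the lower end of the coding gene PPP1R11, at the same coordinate as that start, and 6282 bp from the listed start of PPP1R11. In replicates 1 and 2 the nearest summits to POLR1B were 7218 and 20460 kb away, to POLR1F 2237 and 743 kb, and to POLR1H 1165 and 681 kb.

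POLR1C and POLR1D encode the pair of subunits on which polymerases I and III assemble, and both had a site, in different libraries. POLR1C (chromosome 6, 43517089 to 43562407) had a replicate 2 summit 26 bp downstream of its start with a score of 4.34, and the same summit was 189 bp from the start of the divergent gene YIPF3. Replicate 1 had none nearer than 770 kb and replicate 3 none nearer than 113 kb. POLR1D (chromosome 13, 27620743 to 27667411) had a replicate 3 summit 515 bp upstream with a score of 8.003, the most distant of the sites within 1 kb. That summit lay inside LNX2, a gene on the opposite strand, 301 bp from a listed start of it. Replicates 1 and 2 had none nearer than 1398 and 1367 kb.

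Of polymerase II, POLR2C and the shared subunit gene POLR2E had a site. POLR2E (chromosome 19, 1086574 to 1095375) was the 1 member with a site of replicate 1. That summit lay 127 bp upstream of the start with a score of 9.09, above 76.0% of that list. No coding gene other than POLR2E had an end within 1 kb of it. For replicate 2 the distance was 6355 kb and for replicate 3 it was 298 kb. POLR2C, which encodes a subunit of the assembly platform of polymerase II (chromosome 16, 57462679 to 57472009), had a replicate 3 summit 128 bp downstream of its start. Its score of 3.08 was the lowest of the 9 sites of replicate 3, above 0.767% of that list. Replicates 1 and 2 instead had summits 71 bp from each other and 15.3 and 15.2 kb upstream of POLR2C, between the divergent genes CIAPIN1 and COQ9, with scores of 4.55 and 4.37.

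**Figure D3:**
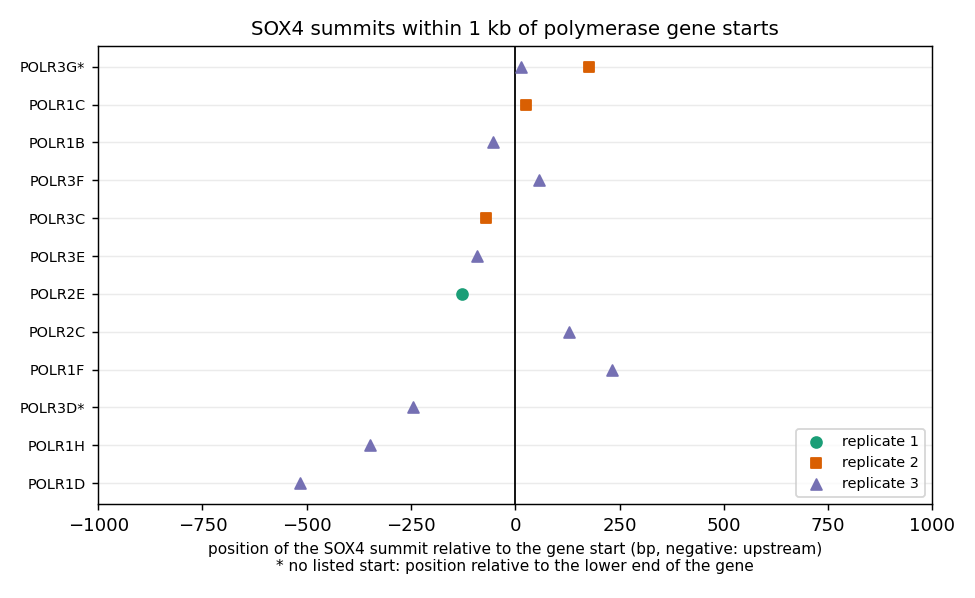
Position of each SOX4 summit within 1 kb of a polymerase gene relative to the gene start, in bp, for replicates 1, 2 and 3; negative values are upstream. For POLR3G and POLR3D, marked with a star, positions are relative to the lower end of the gene. All sites lie between 515 bp upstream and 231 bp downstream.

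The sites clustered around the starts, as they did genome-wide. Each gene was counted once for each library with a summit within 1 kb, so a summit shared by neighbouring genes counts for each. Over the genes with a listed start, the summit lay within 300 bp of it in 8 of 10 such cases (80%). The share was 77.6% of the 3225 cases among all coding genes. Upstream of the start lay 6 of the 10 (60%), against 40.0% of all. Another coding gene had its start, or an end where no start was listed, within 1 kb of the same summit for 5 of the 12 genes (41.7%): POLR3C, POLR3G, POLR1C, POLR1D and POLR3F. The share among all 3165 called coding genes was 27.7%. At POLR1B and POLR1H an end, though not the listed start, of another coding gene (TTL and PPP1R11) was within 1 kb. At these genes the summit cannot be assigned to 1 of the neighbours.

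At or above the median of their whole list were the 1 site of replicate 1, 0 of the 3 sites of replicate 2 and 4 of the 9 sites of replicate 3. In replicate 3 the 9 sites ranged from 3.08 to 9.02 with a median of 5.52, and the summits of that library near any coding gene had a median of 5.51. In replicate 2 the 3 sites ranged from 3.82 to 5.51, all below the list median of 5.57, and the summits near any coding gene had a median of 5.26. The replicate 1 site at POLR2E scored 9.09, and the summits near any coding gene had a median of 5.71 and an upper quartile of 7.64. Kept at or above the median score of their own list were 5 of the 12 genes, POLR2E, POLR3D, POLR1D, POLR3G and POLR1F (15.2% of the members, against 8.13% of all coding genes).

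**Figure D4:**
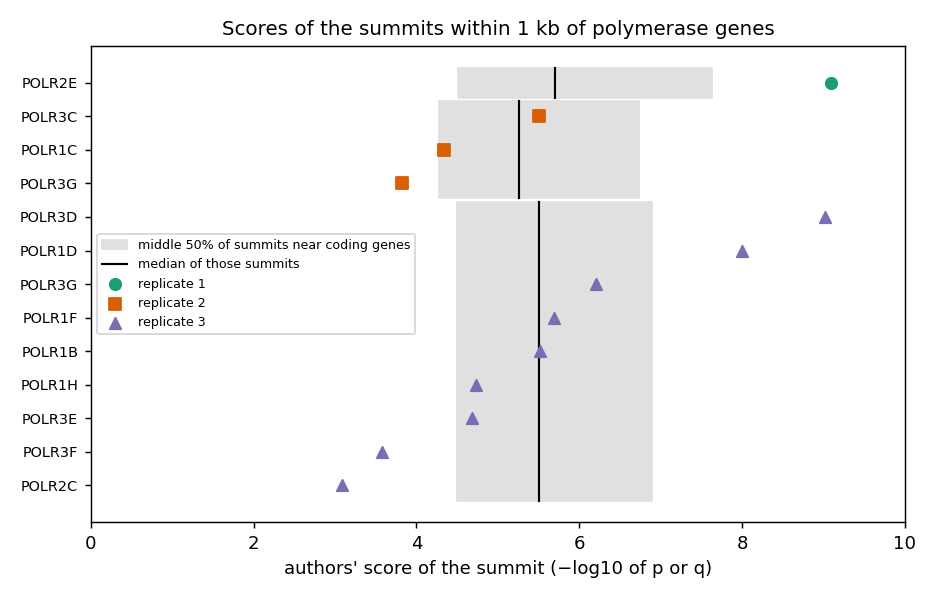
Authors' score of each summit within 1 kb of a polymerase gene, by library; grey bands span the middle 50% and black lines the median of all summits within 1 kb of a coding gene in the same library. POLR2E in replicate 1 and POLR3D and POLR1D in replicate 3 lie above their band, at 9.09, 9.02 and 8.003.

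The other 21 genes had their nearest summit between 4.32 kb and 1472 kb away, with a median of 109 kb. Over all 33 genes the median to the nearest summit of any library was 25.8 kb, against 139 kb for all coding genes. By library it was 1344, 681 and 70.7 kb in replicates 1 to 3, against 933, 1045 and 174 kb. In replicate 1 the members thus lay farther from a summit than all coding genes. The nearest of the 21 were POLR2K, POLR3A, POLR3GL, POLR1E and POLR2H, and for the first 4 of them the site lay at another gene. POLR2K, a small subunit of all the nuclear polymerases, had a replicate 3 summit at 4.32 kb that lay inside SPAG1, 282 bp from its lower end. POLR3A, the gene of the largest subunit of polymerase III, had one at 4.55 kb, 200 bp from the start of the ribosomal protein gene RPS24. POLR3GL had one at 6.87 kb, 193 bp from the start of LIX1L. POLR1E, part of a polymerase I heterodimer, was, with POLR2C, a member with summits of all 3 libraries within 25 kb, at 19.6, 21.2 and 19.5 kb with scores of 7.97, 3.57 and 7.84. They lay around the start of ZBTB5, a zinc finger gene, and those of replicates 1 and 3 were 99 bp apart. POLR2H had a replicate 3 summit at 25.8 kb.

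The farthest were POLR2F at 1472 kb, POLR2M at 973 kb and POLR3B at 416 kb. POLR2A, which encodes the catalytic subunit of polymerase II with its repeated carboxy-terminal tail, had its nearest summits at 373, 249.8 and 88.6 kb in replicates 1 to 3, and POLR2B, its partner in the active centre, at 1432, 7269 and 70.7 kb. POLR1A had them at 335, 3681 and 566 kb. POLRMT had them at 462, 6817 and 164 kb, and the first of these was the POLR2E summit. POLR2J, POLR2J2 and POLR2J3 are near-identical copies on chromosome 7, where short reads may map to more than 1 copy. Their nearest summits were the same in each library, with the closest at 109 kb from POLR2J. CRCP, which encodes a polymerase III subunit but falls outside the rule on symbols, had none nearer than 586 kb.

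Promoter sequences were then compared over the 25 genes in the promoter table, from 250 bases before to 50 bases after the start. Each motif was searched on both strands and its share is set beside that of all 15842 coding promoters of the same length. The searched stretch does not hold the summits of POLR1D and POLR1H, 515 and 349 bp upstream. Nor does it hold those of POLR1F, POLR2C and POLR3F, 231, 128 and 57 bp downstream. For these genes the motifs describe the promoter and not the site. Each of 3 cores bound by HMG box factors was found in 1 member. ACAAAG was found in 1 promoter, POLR2C (all promoters 12.8%), AACAAT in 1, POLR1A (7.06%), and ACAATG in 1, POLR3E (7.95%). AACAAT and ACAATG can overlap each other. Among all coding genes, ACAAAG was in 10.3% of called and 13.3% of other genes. The shares were 4.63 and 7.53% for AACAAT and 6.33 and 8.26% for ACAATG, so each core was less frequent in called genes. TATAAA was also less frequent in called than in other genes (5.91 and 10.4%), and GGGCGG more frequent (71.5 and 56.0%). The median GC content was 65.3% in called and 62% in other genes. A called gene can have its summit outside the searched stretch, and the cause of these differences was not tested. In POLR3E the ACAATG match, on the reverse strand, began 44 bases before the start. It therefore lay outside the 21 bases around the summit, 91 bp upstream. None of the printed summit stretches of POLR3C, POLR1B and POLR2E came from a promoter with any of these cores.

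The motif CCGGAAG, the core recognised by ETS factors, was found in 10 of the 25 promoters (40%, all promoters 14.2%). It was as frequent with a site as without one, in 4 of the 10 called genes and 6 of the 15 others. Among all coding genes its share was 21.9% in called and 12.7% in other genes. The matches in the called members are shown with 11 bases on each side, 5′ to 3′ in the direction of transcription, with the motif or its reverse complement in capitals. They lie at chr2:112541899-112541927, chr6:43516866-43516894, chr6:43516951-43516979, chr16:57462643-57462671 and chr1:145824164-145824192, all on the + strand. A further match in POLR1C overlaps the one on the reverse strand.
POLR1B: aggcctccagtCCGGAAGatgcgacgagg
POLR1C: gatgtgggcctCCGGAAGgtagacgtcca
POLR1C, reverse complement: gacaaaagcaaCTTCCGGaagctggggac
POLR2C, reverse complement: tcgctgactgaCTTCCGGtgttggcggtg
POLR3C: aaagagcgtccCCGGAAGccgccgaaact
In POLR3C and POLR2C the motif began 25 bases before the start, and in POLR1B 126 bases before it.

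The other motifs gave GGGCGG in 17 of 25 promoters (all 58.5%), CCAAT in 6 (36.4%), CACGTG in 4 (8.88%), the palindromic NRF1 core in 2, POLRMT and POLR2F (1.75%), and TATAAA in 1, POLR2M (9.63%). Exact matches to the 1 fixed sequence used for the ZNF143 motif and to the AP-1 motif TGAGTCA were in none (0.372% and 3.66%). Variants of that ZNF143 sequence were not searched. The POLR2E promoter printed above holds a stretch that differs from the ZNF143 sequence by 1 base. All 25 promoters held CpG dinucleotides, from 15 in POLR3F to 47 in POLR2H, with a median of 27 against 22 for all coding promoters. The median was 27 in the 10 called members and 28 in the others. Genome-wide it was 27 in called and 20 in other genes.

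The partners of the polymerases, 83 genes in 6 lists, were set beside them. Of these, 31 were close to a summit of any library (37.3%, with a background of 15.8%), 5 in at least 2 libraries (6.02%, against 3.38%) and 2 in all 3 (2.41%, against 0.913%). Without replicate 3, 8 of the 83 were (9.64%, against 5.04% of all coding genes). By list the counts for any library were 1 of 7 polymerase I factors, 5 of 16 subunits of TFIID, 9 of 17 other general factors of polymerase II, 6 of 19 elongation factors, 7 of 16 polymerase III factors and 3 of 8 mitochondrial factors. For polymerase II, the general factors outside TFIID had 9 of 17 genes, TFIID 5 of 16 and the elongation factors 6 of 19. The subunits of polymerase II alone had 1 of 9, and the share of all coding genes was 15.8%. These differences were not tested. Without replicate 3 the 4 counts were 2 of 17, 0 of 16, 3 of 19 and 0 of 9, against 5.04% of all coding genes.

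SNAPC3, a subunit of the complex that directs small nuclear RNA transcription by polymerases II and III, had summits of all 3 libraries at 43, 194 and 262 bp upstream of its start with scores of 5.83, 3.09 and 7.71. MTERF3, a regulator of mitochondrial transcription on chromosome 8, had them at 111, 77 and 203 bp from a gene end with scores of 3.89, 7.54 and 4.39. TAF1D, a subunit of the polymerase I selectivity factor, had a replicate 1 summit 25 bp and a replicate 3 summit 136 bp downstream with scores of 6.07 and 10.3. CCNH, the cyclin of the TFIIH kinase, had replicates 2 and 3 at 71 bp upstream and 352 bp downstream with scores of 4.65 and 8.26. SUPT16H, a histone chaperone subunit, had replicates 1 and 3 at 285 and 335 bp downstream with scores of 4.15 and 3.94. The highest scores seen in 1 library, all in replicate 3, were at TAF4 (11.7), SNAPC5 (10.2), TAF9 (9.27), TFB1M (8.78) and TAF2 (7.64).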

How the data were processed

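SOX4 ChIP-seq libraries of BT549 cells were 36-base paired-end reads, per the labels' protocols. BWA, SAMtools and MACS2 were used, per the submitters' processing notes, with no versions given. The authors deposited 1 summit list per library, with a score on the −log10 scale of MACS2. Whether it stands for a p or a q is not given in the sources used here. The notes name hg19, but 41 contig names with KI270 identifiers belong to GRCh38, so positions were read as GRCh38, 1-based. Read depth is unknown.

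From these lists, the nearest summit to each of 20037 coding genes was found with Python 3.11.15, pandas 2.3.3 and NumPy 2.4.6, and intervals with SciPy 1.17.1. The reference point was the start in the RefSeq promoter table (15842 genes), otherwise the nearer gene end. Where the table lists several starts, the nearest was used; motifs used the first listed window. The search was checked on simulated summits. No set test was made. Alternatives changed the distance, the gene end, the score threshold, the agreement between libraries and the libraries used; genes with a listed start, genes outside chromosome 8 and the counts by class were added after the data were seen. All polymerase genes analysed are accounted for, and 1 gene that the rule on symbols covers is not reported here; other transcription genes are named when at least 2 libraries had a site, or for the 5 highest scores in 1 library. The members and lists were chosen with earlier results of these data known.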

Additional observations from a re-analysis of the deposited data

How the results depend on the processing

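The count of polymerase genes near a summit of any library, 12, was 11 within 500 bp, 14 within 5 kb of the start or of either end and 12 within 1 kb of either end. It was 10 with genes that have a listed start and 11 without chromosome 8. It fell to 5 with summits at or above the median score, and ranged from 4 to 11 with 1 library left out, lowest without replicate 3. The count with at least 2 libraries, 1, was 0 with summits at or above the median score and 0 with genes that have a listed start, since POLR3G has none, and ranged from 0 to 1 with 1 library left out. For the 83 partner genes, the 31 with any library became 15 at or above the median score and 8 to 30 with 1 library left out, and the 5 with at least 2 libraries became 0 and 2 to 4. Of 28 counts by class, 21 stayed within 1.5 times and 7 moved, with 7 lower and 2 higher in all. The classes of POLR2M and POLRMT hold 1 gene each with a count of 0, which leaving out a library cannot change. Without replicate 3, every other class moved except the subunits of all 3 enzymes. No paired analysis was possible because the libraries form 1 group. Summit lists carry no read counts, so a site missed for lack of depth cannot be told apart from an absent one.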
